A study of Mus musculus with 11 samples.

Results

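Glucocorticoids are steroid hormones of the adrenal cortex, and 10 genes that belong to their pathway were examined in the aorta of old mice with and without dietary nitrate. These were the receptor gene Nr3c1, the hormone-activating enzyme gene Hsd11b1, the target genes Fkbp5, Tsc22d3, Zbtb16, Klf9, Sgk1 and Pdk4, and the metallothionein genes Mt1 and Mt2. They were chosen by name, as every array spot outside the control spots that carried one of these gene names. This gave 21 spots of 12 distinct probes, among 55681 probes and 36413 names on the array.

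All samples were descending aortas of male C57BL/6 mice aged 20 months. The old nitrate treated mice (n = 5 arrays) had received 1 g/L NaNO3 in drinking water during 8 weeks, and the old controls (n = 6 arrays) had no nitrate. The paper names sodium chloride for the controls, which their labels do not, and according to those labels the controls are reanalysed from samples of an earlier series. The paper names 6 replicates of each group, and only 5 nitrate arrays were among the samples available here. Each array measured the RNA of 1 mouse with a single dye, so that a signal is compared between mice for the same probe and never between probes. Because the whole vessel was used, fewer cells of a type and less RNA per cell cannot be told apart.

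The 11 arrays lay on 3 slides, each with both groups, and were scanned on 2 days. Slides 1 and 3 each held 2 nitrate and 2 control arrays, and slide 2 held 1 nitrate and 2 control arrays. Every difference given below within slide 2 therefore rests on 1 nitrate treated mouse. Column 3 of the slides held every control array and none from the nitrate group, and therefore column and treatment cannot be told apart. The arrays correlated with each other at 0.982 to 0.995, and control 1 stood lowest, with a mean of 0.985, so the differences it moved most are also given without it. All 7 smooth muscle and all 7 endothelial markers examined were detected, and so were all 9 adipocyte and all 6 brown adipocyte markers, although the methods state that surrounding fat was removed. Precision is limited by how few arrays each group had.

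Corticosterone, the main glucocorticoid of mice, enters cells and binds the glucocorticoid receptor, which is held ready by heat shock proteins and the co-chaperones of the FKBP family. The bound receptor moves to the nucleus and binds DNA at short palindromic elements, where it raises the transcription of genes such as Fkbp5 and Tsc22d3. Adrenal hormone release follows a daily rhythm and rises with stress, and fat, liver and vessel wall can also regenerate active hormone locally through the enzyme encoded by Hsd11b1.

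To show what the sequence in front of these genes looks like, the 250 bases before the annotated start were searched on both strands for short motifs. RefSeq windows on GRCm38.p6 were given for 8 of the 10 genes and not for Zbtb16 and Nr3c1. The paired receptor element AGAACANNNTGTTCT was found in 3 of 32851 windows of all genes, or 0.00913%, and 1 of these 3 belonged to Sgk1, at chr10:21993640-21993889, with its first base at -189. The E-box CACGTG, the element bound by clock transcription factors, was found in 6.02% of windows, among them that of Fkbp5 at chr17:28486150-28486399 on the minus strand, at -169. The metal response element cores TGCACNC and TGCGCNC were found in 10.4% and 12.5% of windows. The window of Mt1, at chr8:94178839-94179088, held 1 of them, and that of Mt2, at chr8:94172368-94172617, held 3. The 4 windows are shown 5′ to 3′ on the strand of the gene because they hold the elements named here, which are in capitals, and a match is a description of letters and not of a bound site. In the Sgk1 window the capitals mark the receptor element alone, and an E-box at -246 and a single arm of the element at -242, on the other strand, are left in lower case.
Sgk1: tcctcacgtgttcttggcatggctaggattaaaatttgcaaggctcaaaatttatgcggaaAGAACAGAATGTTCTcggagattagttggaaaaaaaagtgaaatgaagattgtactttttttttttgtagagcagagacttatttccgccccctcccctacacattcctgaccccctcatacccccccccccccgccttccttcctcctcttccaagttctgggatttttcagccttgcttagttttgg
Fkbp5: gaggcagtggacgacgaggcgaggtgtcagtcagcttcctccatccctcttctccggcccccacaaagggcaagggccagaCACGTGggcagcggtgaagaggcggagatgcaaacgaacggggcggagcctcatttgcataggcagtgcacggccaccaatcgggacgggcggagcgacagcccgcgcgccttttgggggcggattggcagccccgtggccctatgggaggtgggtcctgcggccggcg
Mt1: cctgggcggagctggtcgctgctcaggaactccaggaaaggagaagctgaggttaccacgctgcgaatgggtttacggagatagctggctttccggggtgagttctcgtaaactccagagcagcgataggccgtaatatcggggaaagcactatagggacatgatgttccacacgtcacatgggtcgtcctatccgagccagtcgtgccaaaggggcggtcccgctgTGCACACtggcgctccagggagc
Mt2: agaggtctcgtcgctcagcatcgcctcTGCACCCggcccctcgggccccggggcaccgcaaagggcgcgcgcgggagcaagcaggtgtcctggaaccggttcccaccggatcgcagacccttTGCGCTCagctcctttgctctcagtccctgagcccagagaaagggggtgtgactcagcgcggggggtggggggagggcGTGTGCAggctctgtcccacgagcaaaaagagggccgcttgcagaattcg

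The single arm AGAACA, which is part of the paired element, was present in 16.1% of windows. Outside the Sgk1 window shown, it lay in 2 of the other Sgk1 windows and in 1 of the 3 Tsc22d3 windows, at -185. The Hsd11b1 window held 1 TGCACNC core at -237. The D-box TTATGCAA, the element of clock output factors such as Dbp, was found in 0.694% of windows and in none of these 8 genes.

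All 10 genes were detected, each with its brightest probe well above background on all 11 arrays. In old nitrate treated mice 8 of the 10 had a higher mean and 2 a lower mean, with a median difference of 0.15 on the log2 scale, against 0.01 over the 23633 detected transcripts, of which 53.8% were higher. At the unadjusted P value under 0.05 used in the study, 2 of the 10 differed in limma's moderated test, where 14.4% of all detected transcripts did. Fkbp5 rose, as did 7.71% of all transcripts, and Hsd11b1 fell, as did 6.66%. Both had a fold change above 1.2, and 9.00% of all transcripts passed both limits. After Benjamini-Hochberg adjustment over all detected transcripts none of the 10 passed, the lowest adjusted P value in limma being 0.264, and 0.0127% of all transcripts did. The groups overlapped for each of the 10 genes, and did not overlap for 2.75% of all transcripts.

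**Figure D1:**
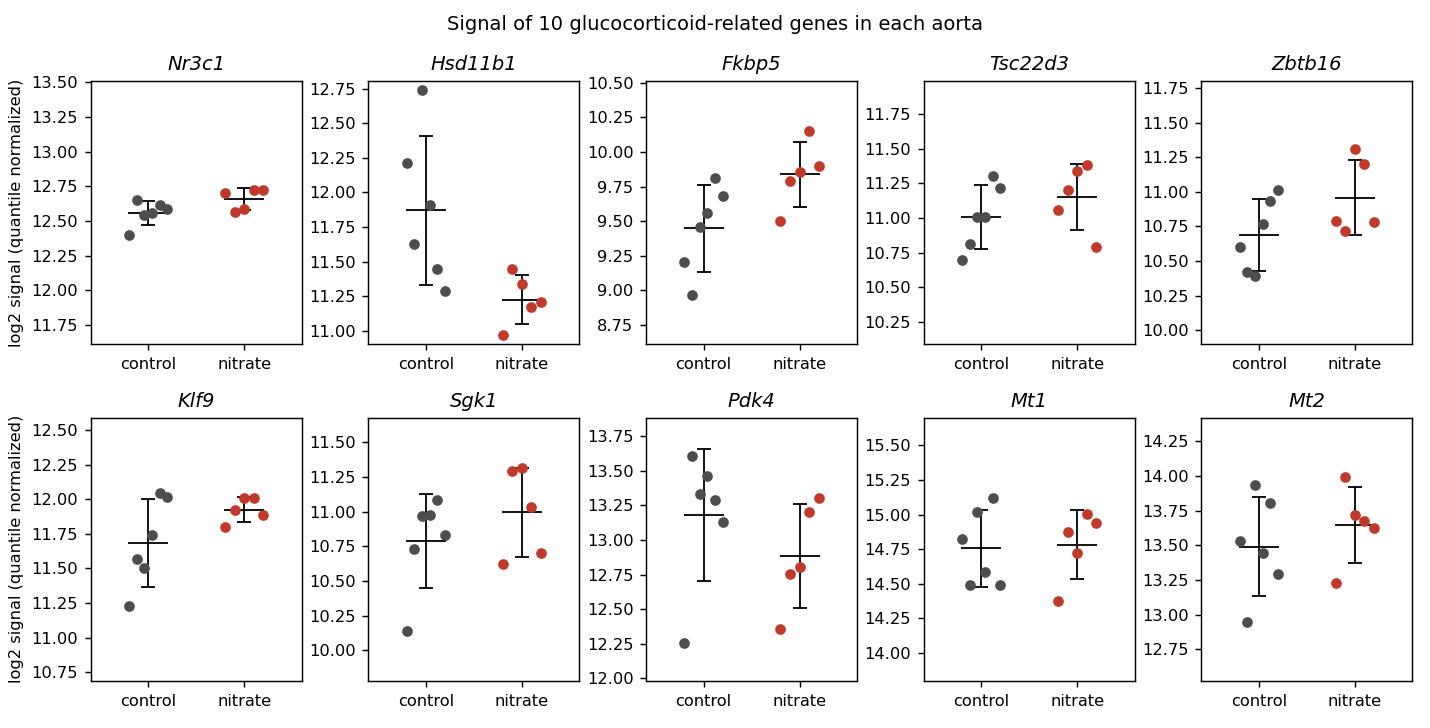
Quantile normalized log2 signal of the brightest probe of each of the 10 genes, with 1 point per mouse (grey, 6 old controls; red, 5 old nitrate treated mice), a wide line for the group mean and bars for the SD. Each panel has its own range of values, and points of the groups overlap in every panel, with the Hsd11b1 points of the nitrate group between 10.97 and 11.45 and those of the controls reaching 12.74.

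Nr3c1 encodes the glucocorticoid receptor itself. Its brighter probe, at chr18:39571641-39571700 in mm9, gave log2 signals of 12.70, 12.56, 12.59, 12.72 and 12.72 in nitrate treated mice 1 to 5. In controls the lowest signal was 12.40, the median 12.57 and the highest 12.65. The receptor signal varied little over the 11 mice, and 4 of the 5 nitrate treated mice were above the control median. The difference was 0.10 (SE 0.07, 95% interval -0.04 to 0.24), with a P value of 0.144 in limma's moderated test (adjusted 0.495) and of 0.0714 in a two-sided exact permutation test. The second probe of Nr3c1 differed by -0.04, with an exact permutation P value of 0.667. A rise or fall of the receptor transcript beyond the spread between mice was therefore not detected with either probe.

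Proteins that hold the receptor in its hormone-binding form and cofactors that act with it on DNA made up a list of 15 genes, all detected. At the brightest probe of each, none rose, 2 fell and 13 did not pass, with a median difference of -0.02, and the 2 called of 15 are near the 14.4% of all detected transcripts. Among the 13, Hspa8 and Ncoa1 each had another detected probe with an unadjusted P value under 0.05 in limma. Fkbp4, the co-chaperone that helps carry the receptor to the nucleus and is exchanged against the product of Fkbp5, had a log2 signal of 8.49 to 8.89 in nitrate treated mice (median 8.64) and of 8.88 to 9.00 in controls (median 8.97). It fell by 0.29 (exact permutation P value 0.00433, adjusted P value 0.161 in limma), with a slight overlap between the groups. Bag1, a co-chaperone that binds Hsp70, fell by 0.27 (exact permutation P value 0.0281, adjusted P value 0.273 in limma). Signals of the heat shock protein genes Hsp90aa1 and Hsp90ab1 differed by -0.03 and -0.01, and that of Nr3c2, the mineralocorticoid receptor that also binds corticosterone, by 0.17, none of them past the limit.

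Hsd11b1 encodes the enzyme that regenerates active corticosterone from its inert form inside cells, and it showed the largest difference of the 10 genes. Its probe, at chr1:195048169-195048228 in mm9, was spotted 10 times on each array, and the SD between these spots within an array was 0.0352 to 0.0731 log2 units. Nitrate treated mice 1 to 5 had log2 signals of 10.97, 11.45, 11.34, 11.17 and 11.21. Controls had 11.29 at the lowest, 11.77 at the median and 12.74 at the highest. All 5 nitrate treated mice lay below the control median, and the 2 highest values, 12.74 and 12.21, were those of controls 3 and 1, while controls 5 and 6, at 11.45 and 11.29, lay within the range of the nitrate group.

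Hsd11b1 fell by 0.64 on the log2 scale (SE 0.23, 95% interval -1.14 to -0.15), which is 1.56-fold. The mean went from 11.87 ± 0.54 (SD, n = 6) to 11.23 ± 0.18 (SD, n = 5). The P value was 0.0146 in limma's moderated test (adjusted 0.264) and 0.0260 in the exact permutation test. Within the 3 slides the difference was -0.71, -0.26 and -0.90. With any 1 mouse left out it lay between -0.76 and -0.47, with P values of 0.00458 to 0.0374 in limma. Without control 3 the difference was -0.47, and without control 1 it was -0.58.

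Between the groups the adipocyte markers differed in the same direction as Hsd11b1. All 9 had a lower mean in nitrate treated mice, 5 of them past the unadjusted limit (6.66% of all transcripts fell), with a median difference of -0.45. The mean of the 9 markers, each centred on its mean over the 11 mice, was -0.50 to -0.04 in nitrate treated mice and -0.10 to 0.58 in controls, and all 9 were detected. Controls 1 and 3, which were highest for Hsd11b1, were also highest for this mean, at 0.58 and 0.50. Within the nitrate group the order differed. Mouse 4 had the highest marker mean, -0.04, with an Hsd11b1 signal of 11.17, and mouse 2 had the highest Hsd11b1 signal, 11.45, with a marker mean of -0.21. Adiponectin (Adipoq), which fat cells secrete, had log2 signals of 14.00 to 14.48 in nitrate treated mice and 14.58 to 15.15 in controls. The 6 brown adipocyte markers went both ways, with 3 higher and 3 lower means and a median difference of 0.04, and 1 of them, Cidea, fell (by 0.52), while Ucp1, Elovl3 and Dio2 differed by 0.23, 0.23 and 0.31 and did not pass. The part of fat tissue in the difference of Hsd11b1 was not tested. Of 5 other genes of hormone supply and clearance, 4 were detected and none passed. H6pd, whose product supplies the Hsd11b1 enzyme with its cofactor, differed by -0.12, and Hsd11b2, the enzyme that inactivates corticosterone, was not detected.

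**Figure D2:**
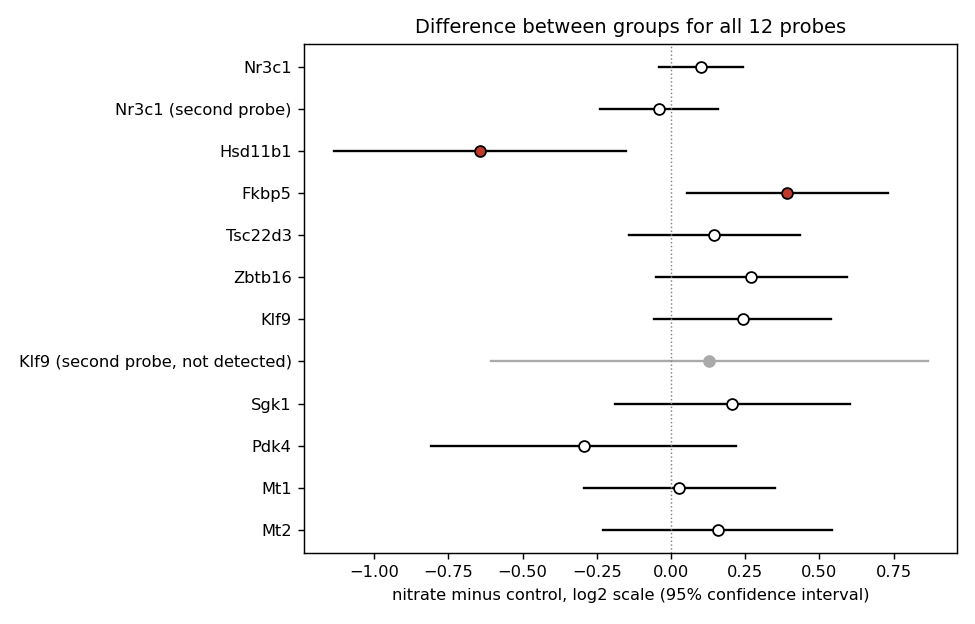
Difference between the group means of each of the 12 probes (nitrate minus control, log2 scale) with its 95% confidence interval from limma. Red points had an unadjusted P value under 0.05, white points did not, and the grey point is a second Klf9 probe that was not detected. The interval leaves out 0 for Fkbp5 and Hsd11b1.

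Fkbp5 encodes the co-chaperone that lowers the receptor's affinity for hormone and is itself induced by the receptor. Its probe lies at chr17:28536060-28536119 in mm9. Nitrate treated mice 1 to 5 had log2 signals of 9.50, 9.79, 9.85, 10.15 and 9.90. In controls the signal ranged from 8.97 to 9.82 with a median of 9.51. The groups overlapped between 9.50 and 9.82, and 4 of the 5 nitrate treated mice were above the control median.

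Fkbp5 rose by 0.39 (SE 0.16, 95% interval 0.05 to 0.73), which is 1.31-fold, from 9.45 ± 0.31 (SD, n = 6) to 9.84 ± 0.23 (SD, n = 5). The P value was 0.0271 in limma's moderated test (adjusted 0.303) and 0.0498 in the exact permutation test. Within the 3 slides the difference was 0.56, 0.23 and 0.39. The call rested on single mice, since it was lost without nitrate treated mouse 4 (0.31, P value 0.0749 in limma), nitrate treated mouse 5 (0.38, 0.0513), control 1 (0.34, 0.0580) or control 2 (0.30, 0.0542).

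Genes of the circadian clock also differed between the groups. Of 15 clock genes, 12 were detected, 9 rose and 2 fell (7.71% and 6.66% of all transcripts), with a median difference of 0.71. The 2 that fell, against the direction of Fkbp5, were Arntl (-1.24) and Npas2 (-0.95). Nr1d1 differed by -0.07 and did not pass. The mean of the 12 genes, each centred on its mean over the mice, was 0.11 to 0.38 in nitrate treated mice and -0.50 to 0.11 in controls. Among 15280 other gene names, the 3 whose signal was most like that of Fkbp5 over the 11 mice were Dbp (Pearson r = 0.936), Slmo1 (0.934) and Lonrf1 (0.932), given as a description. These values keep the difference between the groups in the signal. They are therefore not comparable with the relations tested below, where group means were removed. Dbp, an output transcription factor of the clock, had log2 signals of 13.83 to 15.09 in nitrate treated mice (median 14.41) and of 12.24 to 13.71 in controls (median 13.20). The part of the clock genes in the Fkbp5 difference was not tested, and the hour of sampling is not given in the sources used here. Markers of other aortic cells went in different directions. All 7 smooth muscle markers had a higher mean in the nitrate group, 2 of them past the limit (7.71% of all transcripts rose), with a median difference of 0.15 and a centred list mean of -0.04 to 0.20 in nitrate treated mice and -0.33 to 0.02 in controls, or -0.03 to 0.02 in the 5 controls other than control 1. All 6 fibroblast markers had a higher mean, 1 past the limit, with a median difference of 0.14 and a list mean of -0.08 to 0.20 against -0.26 to 0.01, or -0.10 to 0.01 without control 1. Of the 7 endothelial markers 3 had a higher and 4 a lower mean, 1 rose, and the median difference was -0.09. All 5 macrophage markers had a higher mean, with a median difference of 0.12. All 3 red blood cell markers had a lower mean, with a median difference of -0.46, and no marker of these 2 lists passed. The part of these cells in the differences of Fkbp5 and the other genes with a higher mean was not tested.

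Tsc22d3 encodes GILZ, an anti-inflammatory leucine zipper protein induced by glucocorticoids. Its signals were 11.06, 11.21, 11.34, 11.38 and 10.79 in nitrate treated mice 1 to 5, and 10.70 to 11.30 with a median of 11.01 in controls. Nitrate treated mouse 5 was the lowest of its group and lay near the lowest control. The difference was 0.15 (95% interval -0.14 to 0.43, exact permutation P value 0.310, adjusted P value 0.640 in limma) and did not pass. With 1 mouse left out it ranged from 0.08, without control 1, to 0.24, without nitrate treated mouse 5, and passed in none of these fits. Within the slides it was 0.37, 0.22 and -0.07.

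Zbtb16 encodes PLZF, a zinc finger repressor induced by steroid hormones. Nitrate treated mice had signals of 10.79, 10.72, 11.31, 11.20 and 10.78, and controls of 10.39 to 11.01 with a median of 10.68. All 5 nitrate treated mice lay above the control median, and mice 3 and 4 lay above every control. The difference of 0.27 (95% interval -0.05 to 0.59) had an exact permutation P value of 0.132 and a P value of 0.0920 in limma (adjusted 0.425). Within the slides it was 0.24, 0.42 and 0.33. Zbtb16 passed the unadjusted limit with slide as a block (0.32, P value 0.0213 in limma) and without control 6 (0.34, 0.0425).

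Klf9, a Kruppel-like transcription factor induced by glucocorticoids and thyroid hormone, had signals of 11.80, 11.92, 12.01, 12.01 and 11.89 in the nitrate group. Controls ranged from 11.23 to 12.05 with a median of 11.65. The nitrate treated mice lay close together, with an SD of 0.09 against 0.32 in controls, and all 5 were above the control median, but controls 5 and 6 were higher than each of them. The difference was 0.24 (95% interval -0.06 to 0.54, exact permutation P value 0.132, adjusted P value 0.441 in limma). It passed the unadjusted limit of limma with slide as a block (0.27, P value 0.0483), without control 5 (0.31, 0.0323) and without control 6 (0.31, 0.0395). Without control 1, the lowest of the controls, it was smaller, at 0.15 (P value 0.211 in limma). A second probe named Klf9 was above background on 3 arrays of each group and was not counted as detected.

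Sgk1 encodes a kinase that raises sodium transport and cell survival, and its window with the receptor element is shown above. Signals were 10.62, 11.29, 11.32, 11.03 and 10.70 in nitrate treated mice and 10.14 to 11.08 in controls, with a median of 10.90. The 2 highest values were in the nitrate group and the lowest was that of control 1. The difference of 0.21 (95% interval -0.19 to 0.60, exact permutation P value 0.340, adjusted P value 0.631 in limma) did not pass, and without control 1 it was 0.08 (P value 0.602 in limma). Without nitrate treated mouse 2 or 3 it was 0.13 in each case. Within the slides it turned from 0.52 and 0.42 on slides 1 and 2 to -0.16 on slide 3.

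Pdk4 encodes the kinase that shuts pyruvate out of oxidation during fasting and is raised by glucocorticoids and fatty acids. It was, beside Hsd11b1, the only one of the 10 genes with a lower mean in the nitrate group. Nitrate treated mice 1 to 5 had signals of 12.36, 12.75, 12.81, 13.20 and 13.30, and controls ranged from 12.26 to 13.61 with a median of 13.31. All 5 nitrate treated mice lay below the control median. Control 1, at 12.26, lay below every other mouse, and the remaining controls lay between 13.13 and 13.61.

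The Pdk4 difference was -0.30 (95% interval -0.81 to 0.22) with an exact permutation P value of 0.297 and a P value of 0.234 in limma (adjusted 0.592). Without control 1 it was -0.48 with a P value of 0.0167 in limma (adjusted 0.313), and with arrays weighted by their quality, where control 1 had the lowest weight, it was -0.53 with a P value of 0.0110. It was smaller without nitrate treated mouse 1, the lowest of its group, at -0.16 (P value 0.501 in limma), and without control 2, the highest control, at -0.21 (0.403). The adipocyte marker mean given above was lower in the nitrate group, and its part in the Pdk4 values was not tested. Of 11 genes of the other pyruvate dehydrogenase kinases and of fasting metabolism, 10 were detected, none rose and 3 fell, where 14.4% of all detected transcripts passed and 6.66% fell. The 3 were Pdk2, a sister kinase of Pdk4 (-0.46, exact permutation P value 0.0260), Ppara, a fatty acid receptor that drives fasting genes (-0.45, exact permutation P value 0.00866), and Foxo1, a factor held in check by insulin (-0.15, exact permutation P value 0.0216). Their adjusted P values in limma were 0.277, 0.192 and 0.335. Pdk3, another sister kinase, had a higher mean in the nitrate group, by 0.16, with an exact permutation P value of 0.0303 and a P value of 0.0519 in limma, and so did not pass the limit used here. The 3 other gene names most like Pdk4 over the mice, with the group difference kept, were Fbxo31 (r = 0.912), Gm4017 (0.906) and Pck1 (0.900). Pck1 encodes an enzyme of gluconeogenesis and glyceroneogenesis.

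Mt1 and Mt2 encode small proteins that bind zinc and copper and are induced by metals, oxidants and glucocorticoids. Mt1 had signals of 14.38, 14.88, 14.72, 15.0035 and 14.94 in nitrate treated mice and of 14.49 to 15.12 in controls, with a median of 14.71. Mt2 had signals of 13.23, 13.99, 13.72, 13.67 and 13.63 in nitrate treated mice and of 12.95 to 13.93 in controls, with a median of 13.49. For both genes nitrate treated mouse 1 was the lowest of its group. Mt1 differed by 0.03 (95% interval -0.29 to 0.35, exact permutation P value 0.868), and the sign of this value turned with the scaling. Mt2 differed by 0.16 (95% interval -0.23 to 0.54, exact permutation P value 0.442), and by 0.37, 0.36 and -0.22 within the slides. With 1 mouse left out the Mt2 difference ranged from 0.05, without control 2, to 0.26, without nitrate treated mouse 1. The adjusted P values in limma were 0.957 and 0.718. Of 6 other metallothionein and zinc genes, 3 were detected and none passed, Mt3 at -0.10 and the zinc transporter genes Slc30a1 and Slc39a14 at 0.09 and 0.10. The 3 other names most like Mt2 over the mice, with the group difference kept, were Pip5k1a (r = 0.942), Arsg (0.936) and Csf2ra (0.914).

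Beyond these genes, 24 other genes known to be induced by glucocorticoids were counted, of which 23 were detected. They had 7 higher and 16 lower means in the nitrate group, with a median difference of -0.14, and 2 rose and 2 fell, which is 4 called of 23, near the 14.4% of all detected transcripts. Per1, a clock gene with receptor elements that is also on the clock list, rose by 0.70, past the limit in limma (P value 0.0445, adjusted 0.338) but not in the exact permutation test (P value 0.0779). Anxa1, which encodes the anti-inflammatory protein annexin A1, rose by 0.27 (exact permutation P value 0.00866, adjusted 0.245 in limma). Its other detected probe did not pass. Cdkn1a, a cell cycle inhibitor, fell by 0.50, with signals of 8.83 to 9.30 in nitrate treated mice and 9.39 to 9.97 in controls (exact permutation P value 0.00433, adjusted 0.152 in limma). Angptl4, an inhibitor of lipoprotein lipase that is abundant in fat, fell by 0.53, past the limit in limma (P value 0.0495, adjusted 0.347) but not in the exact permutation test (P value 0.0909). Other widely used induced genes did not pass, among them Dusp1 (0.23), Klf15 (0.12), Ddit4 (-0.12) and Nfkbia (-0.14). Of 10 inflammation genes that glucocorticoids repress, 5 were detected, 3 with a higher and 2 with a lower mean, among them Ptgs2 (0.69) and Ccl2 (-0.31), which did not pass. The 1 of 5 that passed, near the 14.4% of all transcripts, was Nos2, the inducible nitric oxide synthase, which fell by 0.32 (exact permutation P value 0.0238, adjusted 0.268 in limma).

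**Figure D3:**
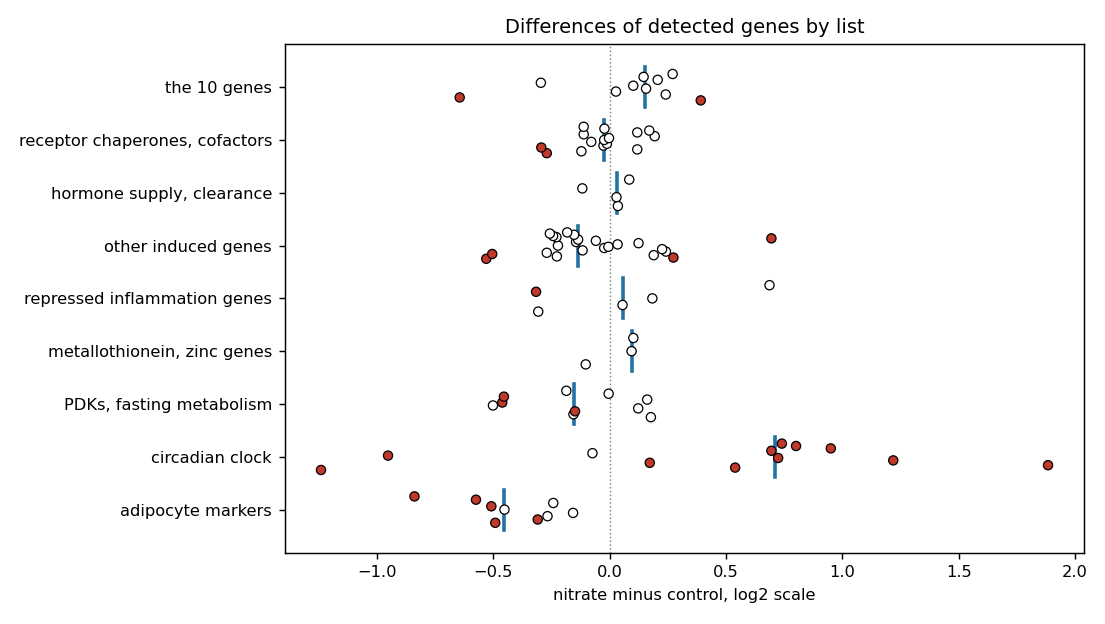
Difference between group means (nitrate minus control, log2 scale) of each detected gene of 9 lists at its brightest detected probe, with red points for an unadjusted P value under 0.05 in limma and a blue line at the list median. The median was 0.15 for the 10 genes and -0.14 for the 23 other induced genes, and the clock genes and adipocyte markers reached medians of 0.71 and -0.45.

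The spread between mice of the same group was wide for most of these genes. The pooled SD within groups was compared with that of detected probes whose mean signal was within 0.5 log2 units. For 9 of the 10 genes its percentile among them was between 83.2 (Tsc22d3) and 96.6 (Hsd11b1), with Pdk4 at 96.5. The receptor gene Nr3c1 was the exception, at the 17.6th percentile with an SD of 0.0837.

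**Figure D4:**
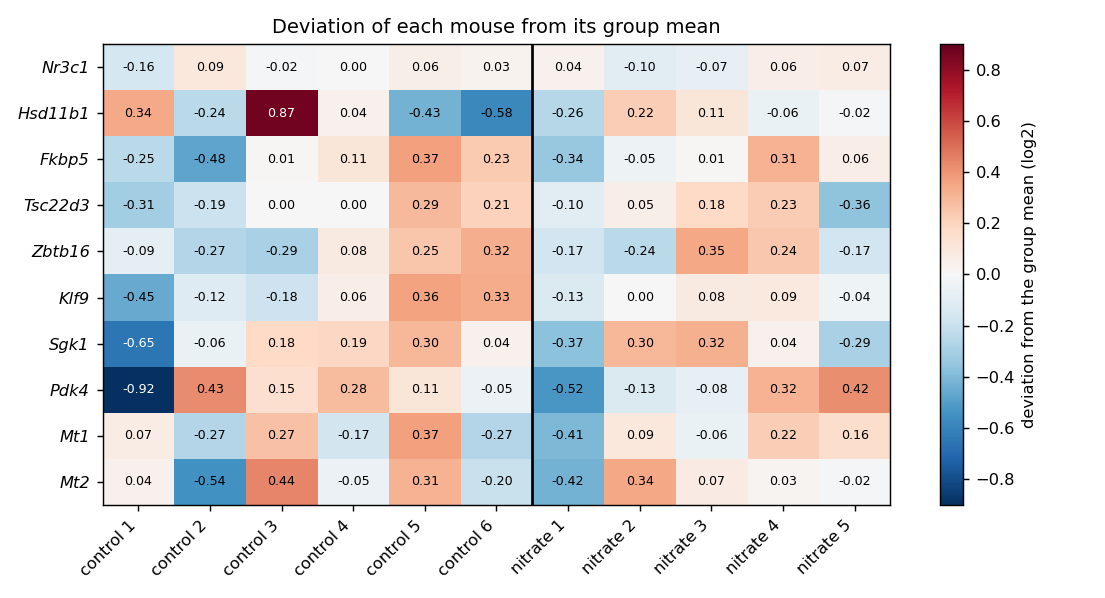
Deviation of each mouse (columns) from the mean of its group for each of the 10 genes (rows), in log2 units, red above and blue below the mean. Control 5 and nitrate treated mouse 4 were above their group means for 9 of the 10 genes, nitrate treated mouse 1 for 1 of the 10, and the deepest value is that of Pdk4 in control 1, -0.92.

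In some mice the deviations of several genes had the same sign. Control 5 and nitrate treated mouse 4 lay above their group means for 9 of the 10 genes, where 45.8% and 47.8% of all detected transcripts did so on those arrays. Nitrate treated mouse 1 was above its group mean for 1 of the 10 genes (53.2% of all transcripts), and control 2 for 2 of the 10 (52.6%). The other 7 mice were above for 3 to 7 of the 10 genes. These are counts over genes of the same mice and carry no test.

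Relations between genes were tested over the 11 mice after the group means had been removed, as 10 relations adjusted together. Mt1 and Mt2 varied together (r = 0.837, permutation P value 0.00135, adjusted 0.0135; rho = 0.800, permutation P value 0.00484, adjusted 0.0242). Without the 2 mice farthest from the median r was 0.723 (permutation P value 0.0290), and with slide means removed as well it was 0.874. Fkbp5 and Klf9 also varied together (r = 0.736, permutation P value 0.00965, adjusted 0.0482; rho = 0.827, permutation P value 0.00257, adjusted 0.0242). Without the 2 farthest mice r was 0.735 (permutation P value 0.0254), and with slide means removed as well it was 0.596 (permutation P value 0.0557), so that this relation did not pass once the slide was taken out. Slides held too few mice for a value within each.

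**Figure D5:**
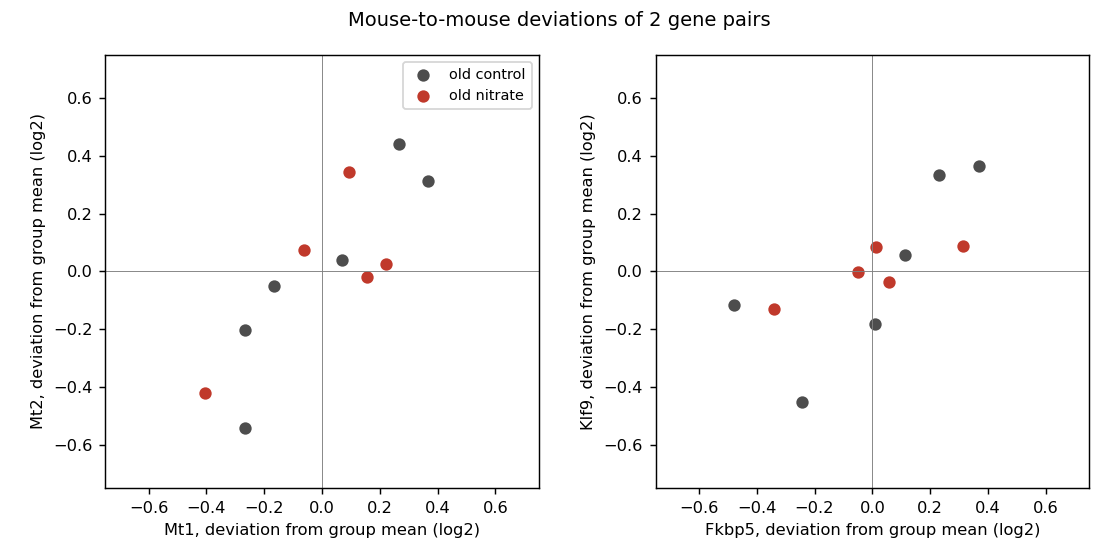
Deviation of each mouse from its group mean (log2 units) for Mt2 against Mt1 on the left and for Klf9 against Fkbp5 on the right, with grey points for old controls and red points for old nitrate treated mice. Both clouds rise from lower left to upper right, with r = 0.837 and r = 0.736 over 11 mice.

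The other 8 relations of Fkbp5 did not pass after adjustment. Fkbp5 and Tsc22d3 gave r = 0.691 (permutation P value 0.0195, adjusted 0.0563) and rho = 0.718 (permutation P value 0.0163, adjusted 0.0544), and r was 0.638 with slide means removed as well (permutation P value 0.0305). Fkbp5 and Zbtb16 gave r = 0.687 (permutation P value 0.0225, adjusted 0.0563) and rho = 0.636 (permutation P value 0.0408, adjusted 0.102), and r was 0.601 with slide means removed as well (permutation P value 0.0547). Without the 2 farthest mice these values of r were 0.587 and 0.582, past no limit. The values of r between Fkbp5 and Sgk1, Mt1, Mt2 and Pdk4 were 0.522, 0.565, 0.553 and 0.353, and without the 2 farthest mice 0.547, 0.306, 0.172 and 0.781. The last, with Pdk4, had a permutation P value of 0.0135 there and 0.288 over all 11 mice, and its sign turned with slide means removed (-0.273). With Nr3c1 and Hsd11b1 the values of r were 0.171 and -0.177, and without the 2 farthest mice 0.473 and -0.231 (permutation P values 0.197 and 0.559). With slide means removed they were -0.237 and -0.330 (permutation P values 0.483 and 0.323). Fkbp5 thus followed neither the receptor transcript nor the enzyme transcript from mouse to mouse beyond what the permutation test could tell from 0.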

How the data were processed

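The authors deposited, for each one-color array, spot intensities that Feature Extraction 10.7.1.1 had corrected for background, with quality flags. They also deposited log2 values, quantile normalized and centred by them, whose columns were each matched to an array. Here, control spots and spots with an outlier flag were dropped, processed signals below 1 were set to 1, log2 was taken, replicate spots of a probe were averaged, and quantile normalization was run over the 11 arrays. Detection required a probe to be found and well above background in 5 or more arrays of a group. Groups were compared in R 4.3.3 with lmFit and eBayes of limma 3.58.1 over all 23633 detected probes, adjusted by Benjamini-Hochberg, and single genes also by two-sided exact permutation tests over 462 divisions of the mice. Undetected probes took values from a fit over all probes. Correlations had 100000 permutations, or all of them where mice were left out.

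Each gene was read at its brightest detected probe. The genes named are all probes of the 10 genes, members of the fixed lists and, for Fkbp5, Mt2 and Pdk4, the 3 names most like each. For these names group means were not removed. Gene names and mm9 positions are those of the files, and promoters are from RefSeq (GRCm38.p6). The members and lists were chosen with earlier results of these data known. The test was tried on simulated data. Replicates were separate mice per the labels. The highest 75th percentile of signal among arrays was 289 and the lowest 213, at most 186 spots of an array were flagged and 0 were saturated. Alternatives covered normalization, background correction, an offset of 16, flagged spots, prior variance, slide and replicate blocks, array weights, detection rules and each array left out. The removal of slide means from correlations was chosen after seeing the data.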

Additional observations from a re-analysis of the deposited data

Results flagged for a closer look

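Pdk4 in control 1 stood apart from its group. Its log2 signal of 12.26 was followed by 13.13 in the nearest control, and this gap was 0.647 of the whole range of the 6 controls. Of 22 groups of values checked in this way, 1 stood apart, and chance gives about 1.1. The array of control 1 also correlated least with the other arrays (mean 0.985) and high values for the striated muscle markers, with a centred list mean of 2.26. Nitrate treated mouse 4 had 2.54, and the other mice lay between -1.50 and 0.65. Their part in the Pdk4 value was not tested.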

How the results depend on the processing

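Hsd11b1 kept its direction and its unadjusted call under all 23 alternatives, between -0.76 and -0.47, and Fkbp5 kept its direction in all and its call in 19. The number of the 10 genes with an unadjusted P value under 0.05, 2 in the reported fit, was 4 with slide as a block, where Klf9 and Zbtb16 joined and 4112 of all transcripts passed against 3394, and 1 to 4 with each mouse left out. With 1 mouse left out it was 1 without nitrate treated mouse 4, nitrate treated mouse 5 or control 2, and 4 without control 6. In these fits, in the order given, 3263, 3272, 2968 and 3504 of all transcripts passed. The replicate numbers did not pair the mice, since correlations of deviations between same-numbered mice lay between -0.14 and 0.18. With the replicate block, over numbers 1 to 5 and so without control 6, 3 of the 10 genes and 3074 of all transcripts passed. The third gene was Klf9 (0.31, P value 0.0346 in limma, against 0.31 and 0.0395 without control 6 and no block). After adjustment 0 transcripts passed in that fit. The difference of Mt1 turned to -0.0025 with the 75th percentile scaling, to -0.0033 with slide as a block and to -0.026 with the replicate block, as without control 6 alone, and lay between -0.027 and 0.13 with each mouse left out. With slide means removed, r of Fkbp5 turned to -0.273 with Pdk4 and to -0.237 with Nr3c1.

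Over all transcripts, 3 passed after adjustment in the reported fit, against 0 with the 75th percentile scaling, 5 with normexp correction, 1 with 16 added before log2, 8 with a trended and robust prior variance, 6 with slide as a block, 129 with array weights, 1 with no filter on dim probes, 0 without the spot-found flag, and 0 to 8 with each mouse left out. Before adjustment 3394 passed, 2128 with a fold change above 1.2 as well, and 2329 to 3504 with each mouse left out. The causes were not tested.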
